A study of Homo sapiens with 12 samples.

Results

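The genes described here are the solute carrier genes that CCD-18Co cells, an established line of human colon myofibroblasts, express at more than trace level. Of the 21893 genes in the deposited table, 370 carry a symbol of the SLC or SLCO type. A gene was kept when its mean over the 12 libraries reached 10 read equivalents (a deposited value divided by the read length of 40 bases), which 208 did. *SLC2A1*, *SLC2A3*, *SLC7A11*, *SLC16A3* and *SLC16A6* were then left out by name, which gave 203 genes. The genes were thus chosen by their mean level over all libraries, so levels are given without a test, and all 203 entered the tests between treatments. *SLC37A2*, *SLC35F2* and *SLC28A3* lay just inside the limit with means of 10.2, 10.6 and 11.2 read equivalents, and *SLC4A8*, *SLC25A21* and *SLC7A7* just outside it with 9.92, 9.26 and 8.85. Of the 162 genes below the limit, 50 were at 0 in every library. Not every kept symbol names a carrier, since *SLC9A3R1*, *SLC9A3R2*, *SLC2A4RG* and *SLC4A1AP* are scaffold, regulatory or adaptor genes and *SLC7A6OS* is a gene on the opposite strand of *SLC7A6*.

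The cells received 100 nM 1,25(OH)2D3 (the active form of vitamin D), 100 ng/ml Wnt3A (a ligand of the canonical Wnt pathway), both agents, or vehicle. RNA was taken after 24 h, and each of the 4 groups had 3 libraries from independent experiments. All groups are cultures of this single cell line, so the spread is that between experiments and not between donors. The libraries held 5363668 to 6261100 read equivalents, and levels are given as CPM (read counts scaled to a common library size after TMM normalization), which carry no correction for gene length.

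Solute carriers move nutrients, ions, metals, vitamins, hormones and drugs across the plasma membrane and the membranes of organelles. Most are either coupled to an ion gradient or exchange a substrate on either side of the membrane, and some need a partner protein to reach the cell surface. In the gut wall, fibroblasts below the epithelium take up amino acids for collagen synthesis and nucleotide sugars are needed for their proteoglycans, while vitamin D is best known there for its control of calcium transport in the epithelium.

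The promoters of *SLC16A7*, *SLCO2B1* and *SLC30A1* are shown for their calls in the fit that leaves out the experiment number. The first was called with each agent alone in the same direction, and the next with each agent in opposite directions. The last is the single zinc carrier called in any comparison of that fit. Each promoter is the 250 bases before the gene start in RefSeq (GRCh38.p14), read on the gene's strand, at chr12:59689120-59689369 (plus strand), chr11:75150857-75151106 (plus strand) and chr1:211579162-211579411 (minus strand), in that order. Capitals mark matches on either strand to 3 families of motifs. The receptor hexamer, which nuclear receptors such as the vitamin D receptor bind in pairs, was searched as AGGTCA or with a first base of G as GGGTCA, and with T in the middle as AGTTCA or with both changes as GGTTCA. The TCF/LEF motif was searched as CTTTGAA or with a last base of T as CTTTGAT, and with T as its next-to-last base as CTTTGTA or with both changes as CTTTGTT. The metal response element core was searched as TGCACNC or with G in the middle as TGCGCNC.
SLC16A7: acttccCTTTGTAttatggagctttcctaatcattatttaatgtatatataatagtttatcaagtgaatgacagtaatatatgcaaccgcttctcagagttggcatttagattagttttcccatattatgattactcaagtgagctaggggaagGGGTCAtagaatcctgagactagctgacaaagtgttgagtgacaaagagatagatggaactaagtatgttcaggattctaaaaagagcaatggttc
SLCO2B1: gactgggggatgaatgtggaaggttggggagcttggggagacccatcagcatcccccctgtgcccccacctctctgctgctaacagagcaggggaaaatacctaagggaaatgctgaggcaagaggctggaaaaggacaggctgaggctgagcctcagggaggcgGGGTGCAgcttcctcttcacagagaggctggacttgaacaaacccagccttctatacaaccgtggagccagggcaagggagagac
SLC30A1: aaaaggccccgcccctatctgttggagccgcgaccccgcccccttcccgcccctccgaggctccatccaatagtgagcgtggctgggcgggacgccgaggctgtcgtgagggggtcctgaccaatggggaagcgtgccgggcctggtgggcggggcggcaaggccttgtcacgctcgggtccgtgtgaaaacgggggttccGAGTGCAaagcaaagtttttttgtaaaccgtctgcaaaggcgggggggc

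*SLC16A7* held a TCF/LEF motif (CTTTGTA) 244 to 238 bases before the start and a receptor hexamer (GGGTCA) at 96 to 91. *SLCO2B1* held neither and had a metal response element core on the opposite strand at 85 to 79 bases, and *SLC30A1* had such a core on the opposite strand at 49 to 43. Matches of this kind are common: among 27305 promoters of this length, 34% held a receptor hexamer, 12.1% a TCF/LEF motif and 24.7% a metal response element core. Among the 164 genes of the group with a promoter in the table the shares were 26.2%, 11% and 31.1%. The paired hexamer element that the vitamin D receptor prefers (DR3) was in 0.0659% of all promoters and in none of the 164. A match is a description of the sequence, and the start used in these cells is not known from these data.

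In vehicle cells the 203 genes ranged from 1.4 to 1740 CPM with a median of 29.9 CPM, with 46 genes under 10 CPM and 34 over 100 CPM. *SLC38A2*, a sodium-coupled importer of glutamine and other neutral amino acids, had the highest level in every group and made up 12.5% to 14.9% of the summed CPM of the 203 genes in single libraries. Per kilobase of canonical transcript, *SLC38A2* averaged 396 CPM over the 12 libraries. It was followed by the glutamine exchanger *SLC1A5* at 140 CPM per kb, the urea carrier *SLC14A1* at 122 and the choline carrier-like *SLC44A2* at 110. The zinc importer *SLC39A6* and the mitochondrial phosphate carrier *SLC25A3* stood at 90.5 and 72.3 CPM per kb. These genes were chosen by CPM, so other genes can lie between them per kilobase. An antisense transcript covers 27.1% of the exons of *SLC1A5*, and no source used here says whether reads were counted by strand. The summed level of the 203 genes was 14100 to 14800 CPM with 1,25(OH)2D3, 13100 to 13400 CPM with Wnt3A, 14000 to 14600 CPM with both and 12900 to 13500 CPM with vehicle.

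Each treatment was set against vehicle in a fit of all genes with edgeR, and a gene was called when its adjusted p (Benjamini-Hochberg over 12216 genes) was under 0.05. With 1,25(OH)2D3, 25 of the 203 genes (12.3%) were called, 18 higher and 7 lower than vehicle, beside 14.7% of all genes tested (8.54% higher and 6.12% lower). Wnt3A gave 15 calls (7.39%), 10 higher and 5 lower, beside 8.29% of all genes (4.96% higher and 3.33% lower). Both agents together gave 51 calls (25.1%), 29 higher and 22 lower, beside 24% of all genes (13.3% higher and 10.7% lower). The median absolute log2 fold change was 0.15 for the carrier genes and 0.15 for all genes with 1,25(OH)2D3, 0.12 and 0.11 with Wnt3A, and 0.18 and 0.18 with both. The share of carrier genes called was thus near that of all genes in each comparison. Over the 5 pairwise comparisons 64 of the 203 were called at least once (31.5%), beside 31.9% of all genes.

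Libraries of 1 experiment deviated together, and more genes were called once the experiment number entered the fit as a replicate block. With the block, 1,25(OH)2D3 gave 32 higher and 17 lower (24.2% of all genes called), Wnt3A 14 higher and 13 lower (13.5%), and both agents 40 higher and 29 lower (33.4%). DESeq2 without the block called 16 higher and 4 lower with 1,25(OH)2D3 (11% of all genes), 10 higher and 5 lower with Wnt3A (6.66%) and 24 higher and 19 lower with both (18.9%). Every call of the fit without the block was also made with it. When each of the 12 libraries was left out in turn, 15 of the 25 calls for 1,25(OH)2D3, 10 of the 15 for Wnt3A and 29 of the 51 for both agents were kept in all 12 fits. In bulk RNA, fewer cells of a kind and less RNA per cell cannot be told apart.

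**Figure D1:**
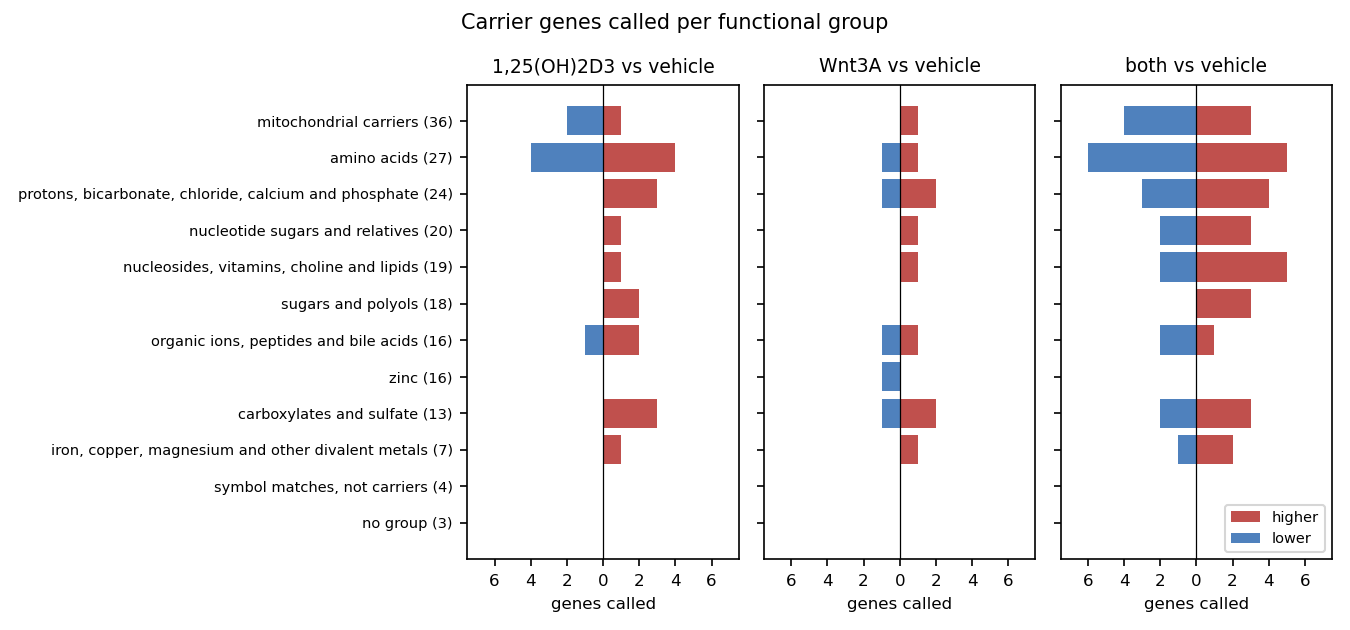
Number of carrier genes called higher (right of 0, red) or lower (left of 0, blue) in each functional group, for 1,25(OH)2D3, Wnt3A and both agents against vehicle, with the number of genes of the group in brackets. Calls are those of the fit without the replicate block. In it, amino acid carriers were called in both directions (5 higher and 6 lower with both agents). No zinc carrier was called in it with 1,25(OH)2D3 or with both agents. Of all genes tested, 8.54% were higher and 6.12% lower with 1,25(OH)2D3, 4.96% and 3.33% with Wnt3A, and 13.3% and 10.7% with both.

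Amino acid carriers were called in both directions. Of 27 genes, 1,25(OH)2D3 gave 4 higher and 4 lower, Wnt3A 1 higher and 1 lower, and both agents 5 higher and 6 lower than vehicle. With the block, 1,25(OH)2D3 gave 6 higher and 4 lower, Wnt3A 1 higher and 4 lower, and both agents 5 higher and 9 lower. In at least 1 pairwise comparison 12 were called (44.4%, with the block 55.6%), beside 31.9% and 46.1% of all genes tested. *SLC1A1* (chromosome 9, 4490427 to 4587469 in GRCh37) encodes EAAT3, the high-affinity importer of glutamate, aspartate and cysteine. It had 134, 133 and 134 CPM with 1,25(OH)2D3, 62.9, 54.2 and 58.5 CPM with Wnt3A, 118, 131 and 121 CPM with both, and 50.4, 54.4 and 55.6 CPM with vehicle. All 6 libraries with 1,25(OH)2D3 lay above all 6 without it. The log2 fold change against vehicle was 1.32 ± 0.074 (SE) with 1,25(OH)2D3 (edgeR adjusted p = 9.98e-13), 0.13 ± 0.079 with Wnt3A (adjusted p = 0.423) and 1.21 ± 0.074 with both (adjusted p = 3.31e-12).

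The glutamine exchanger *SLC1A5* had 488, 525 and 529 CPM with 1,25(OH)2D3, 320, 314 and 313 CPM with Wnt3A, 441, 446 and 433 CPM with both, and 360, 344 and 340 CPM with vehicle. It rose by 0.56 on the log2 scale with 1,25(OH)2D3 (edgeR adjusted p = 1.38e-07) and by 0.34 with both agents (adjusted p = 0.000125), and no library of these groups overlapped vehicle. *SLC38A2* itself had 1993, 2004 and 2199 CPM with 1,25(OH)2D3 against 1624, 1673 and 1910 CPM with vehicle, a log2 fold change of 0.25 ± 0.072 (adjusted p = 0.0192). This call was lost without vehicle replicate 1, vehicle replicate 2 or 1,25(OH)2D3 replicate 3 (adjusted p = 0.0738, 0.0925 and 0.119). The related *SLC38A1* rose by 0.22 with 1,25(OH)2D3 and by 0.26 with both agents, and *SLC38A4* by 0.43 with Wnt3A and 0.41 with both. The call for *SLC38A1* with 1,25(OH)2D3 was lost without vehicle replicate 1 or 2 or any of the 3 libraries with 1,25(OH)2D3 alone (highest adjusted p = 0.103). *SLC38A4* lost its Wnt3A call without vehicle replicate 1 or 2 or Wnt3A replicate 2 or 3 (highest adjusted p = 0.102), and its call with both agents without vehicle replicate 1 or 2 or combination replicate 3 (highest adjusted p = 0.08).

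The carriers that fell include those of large neutral and of cationic amino acids. *SLC7A2* encodes CAT2, an importer of arginine and lysine, and had 11.1, 6.28 and 14.1 CPM with 1,25(OH)2D3, 7.17, 6.94 and 9.48 CPM with Wnt3A, 5.53, 4.13 and 8.95 CPM with both, and 18.6, 16.6 and 27.4 CPM with vehicle. No treated library reached the lowest vehicle library. The log2 fold change was -0.99 ± 0.28 with 1,25(OH)2D3 (edgeR adjusted p = 0.0334), -1.40 ± 0.29 with Wnt3A (adjusted p = 0.00888) and -1.75 ± 0.31 with both (adjusted p = 0.00111). The call for 1,25(OH)2D3 was lost without 1,25(OH)2D3 replicate 1 or 2 or vehicle replicate 1 or 3 (adjusted p between 0.064 and 0.0771) and was not made by DESeq2 (adjusted p = 0.055), and the calls for Wnt3A and both were kept in all 12 fits.

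The large neutral amino acid exchanger is made of *SLC7A5* (LAT1) and its heavy chain *SLC3A2*. *SLC7A5* had 19.3, 18.7 and 21.3 CPM with 1,25(OH)2D3, 17, 15.7 and 19.5 CPM with both, and 22.8, 25.6 and 33.4 CPM with vehicle, with log2 fold changes of -0.47 (edgeR adjusted p = 0.029) and -0.65 (adjusted p = 0.00171). *SLC3A2* had 116, 134 and 121 CPM with 1,25(OH)2D3, 106, 109 and 107 CPM with both, and 151, 139 and 137 CPM with vehicle, with log2 fold changes of -0.20 (adjusted p = 0.0475) and -0.41 (adjusted p = 8.51e-05). Both subunits were thus lower in every library with both agents than in any vehicle library. The calls with 1,25(OH)2D3 alone were lost for *SLC7A5* without 1,25(OH)2D3 replicate 1 or 2 or vehicle replicate 3 (adjusted p = 0.0883, 0.106 and 0.15). For *SLC3A2* that call was kept only without vehicle replicate 3, 1,25(OH)2D3 replicate 2 or Wnt3A replicate 3 and lost in the other 9 fits (highest adjusted p = 0.191), and DESeq2 did not make it (adjusted p = 0.0795), whereas the calls with both agents were kept for the pair. The creatine carrier *SLC6A8* had 30.9 to 34 CPM with 1,25(OH)2D3, 31.3 to 37.6 CPM with both and 39.3 to 48.7 CPM with vehicle, with log2 fold changes of -0.45 and -0.41 (adjusted p = 0.0025 and 0.00277). The taurine carrier *SLC6A6* was lower with both agents than with 1,25(OH)2D3 (log2 fold change -0.45, adjusted p = 0.00706). With the block it was also called against vehicle, higher with 1,25(OH)2D3 (adjusted p = 4.12e-05). Against vehicle it was lower with Wnt3A and with both agents (adjusted p with the block 0.000121 and 0.00304).

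Among the 13 carboxylate and sulfate carriers, 3 rose with 1,25(OH)2D3 and none fell, beside 8.54% higher and 6.12% lower of all genes tested. With Wnt3A 2 rose and 1 fell, and with both agents 3 rose and 2 fell. Calls in at least 1 pairwise comparison numbered 6 (46.2%, with the block 61.5%), beside 31.9% and 46.1% of all genes. *SLC16A7* (chromosome 12, 60083126 to 60175408) encodes MCT2, a high-affinity carrier of lactate and pyruvate, and had 17.8, 21.8 and 19 CPM with 1,25(OH)2D3, 17, 16.8 and 13.6 CPM with Wnt3A, 24, 23.3 and 23.9 CPM with both, and 8.69, 10.1 and 8.65 CPM with vehicle. All 9 treated libraries lay above all vehicle libraries. The log2 fold change of *SLC16A7* was 1.09 ± 0.14 with 1,25(OH)2D3 (edgeR adjusted p = 2.45e-06), 0.78 ± 0.14 with Wnt3A (adjusted p = 0.000478) and 1.37 ± 0.13 with both (adjusted p = 1.41e-08), where the sum of the single changes is 1.87.

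*SLC16A5*, encoding MCT6, had 18.1, 17 and 21.9 CPM with 1,25(OH)2D3 but 13.6, 13.8 and 13.3 CPM with both agents, against 11.1, 13.6 and 12.6 CPM with vehicle. Its log2 fold change was 0.60 with 1,25(OH)2D3 (edgeR adjusted p = 0.00196) and 0.12 with both (adjusted p = 0.558). *SLC16A14*, a carrier with no settled substrate, had 35.9 to 43.5 CPM with Wnt3A, 39.2 to 42.2 CPM with both and 49.4 to 59.6 CPM with vehicle (log2 fold changes -0.48 and -0.46, adjusted p = 0.000809 and 0.000472). The sulfate carrier *SLC26A2*, on which sulfation of matrix proteoglycans depends, had 99.8, 94.2 and 87.6 CPM with both agents, against 75.6, 72.5 and 73.2 CPM with Wnt3A (log2 fold change 0.35, adjusted p = 0.00821).

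The organic anion carriers held the 1 gene called in opposite directions with the single agents in the fit without the block. With the block, *SLC6A6*, *SLC12A8* and *SLC14A1* of other groups were also called in opposite directions with the single agents. Of 16 carriers of organic ions, peptides and bile acids, 1,25(OH)2D3 gave 2 higher and 1 lower, Wnt3A 1 higher and 1 lower, and both agents 1 higher and 2 lower. Some pairwise comparison called 5 of them (31.2%, with the block 43.8%), beside 31.9% and 46.1% of all genes tested. *SLCO2B1* (chromosome 11, 74862032 to 74917445) encodes OATP2B1, a carrier of steroid sulfates and of many drugs, and had 273, 272 and 273 CPM with 1,25(OH)2D3, 75.3, 73.9 and 58.9 CPM with Wnt3A, 181, 177 and 174 CPM with both, and 119, 120 and 119 CPM with vehicle. The 4 groups did not overlap, with the combination between 1,25(OH)2D3 and vehicle. Its log2 fold change was 1.19 ± 0.071 with 1,25(OH)2D3 (edgeR adjusted p = 3.28e-12), -0.78 ± 0.077 with Wnt3A (adjusted p = 1.1e-07) and 0.57 ± 0.072 with both (adjusted p = 1.18e-06), where the sum of the single changes is 0.41.

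*SLCO2A1*, the prostaglandin carrier, had 9.78, 6.39 and 8.65 CPM with Wnt3A, 5.16, 4.29 and 5.05 CPM with both, 3.24, 3.32 and 4.90 CPM with 1,25(OH)2D3 and 3.48, 3.04 and 2.66 CPM with vehicle. It rose by 1.44 on the log2 scale with Wnt3A (edgeR adjusted p = 8.53e-05), and the change with both agents was 0.65 (adjusted p = 0.0601). With both agents it was lower than with Wnt3A alone (log2 fold change -0.79, adjusted p = 0.0105), a call lost without Wnt3A replicate 1 or combination replicate 2 (adjusted p = 0.0881 and 0.0681) and not made by DESeq2 (adjusted p = 0.0539). *SLCO4A1*, an organic anion carrier, was lower with 1,25(OH)2D3 at 1.37, 2.59 and 2.83 CPM and with both agents at 1.48, 1.91 and 1.95 CPM, against 5.39, 5.44 and 4.49 CPM with vehicle. Its log2 fold changes were -1.18 ± 0.27 (adjusted p = 0.00273) and -1.50 ± 0.27 (adjusted p = 0.000193), on few reads and with an antisense gene over 7.03% of its exons. The vesicular monoamine carrier *SLC18A2* rose by 0.60 with 1,25(OH)2D3 (adjusted p = 0.0353), but 60.7% of its exons overlap genes on the other strand and the call was lost in 3 of the 12 fits, without vehicle replicate 2 or 3 or 1,25(OH)2D3 replicate 1 (highest adjusted p = 0.208). DESeq2 did not make that call (adjusted p = 0.13).

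**Figure D2:**
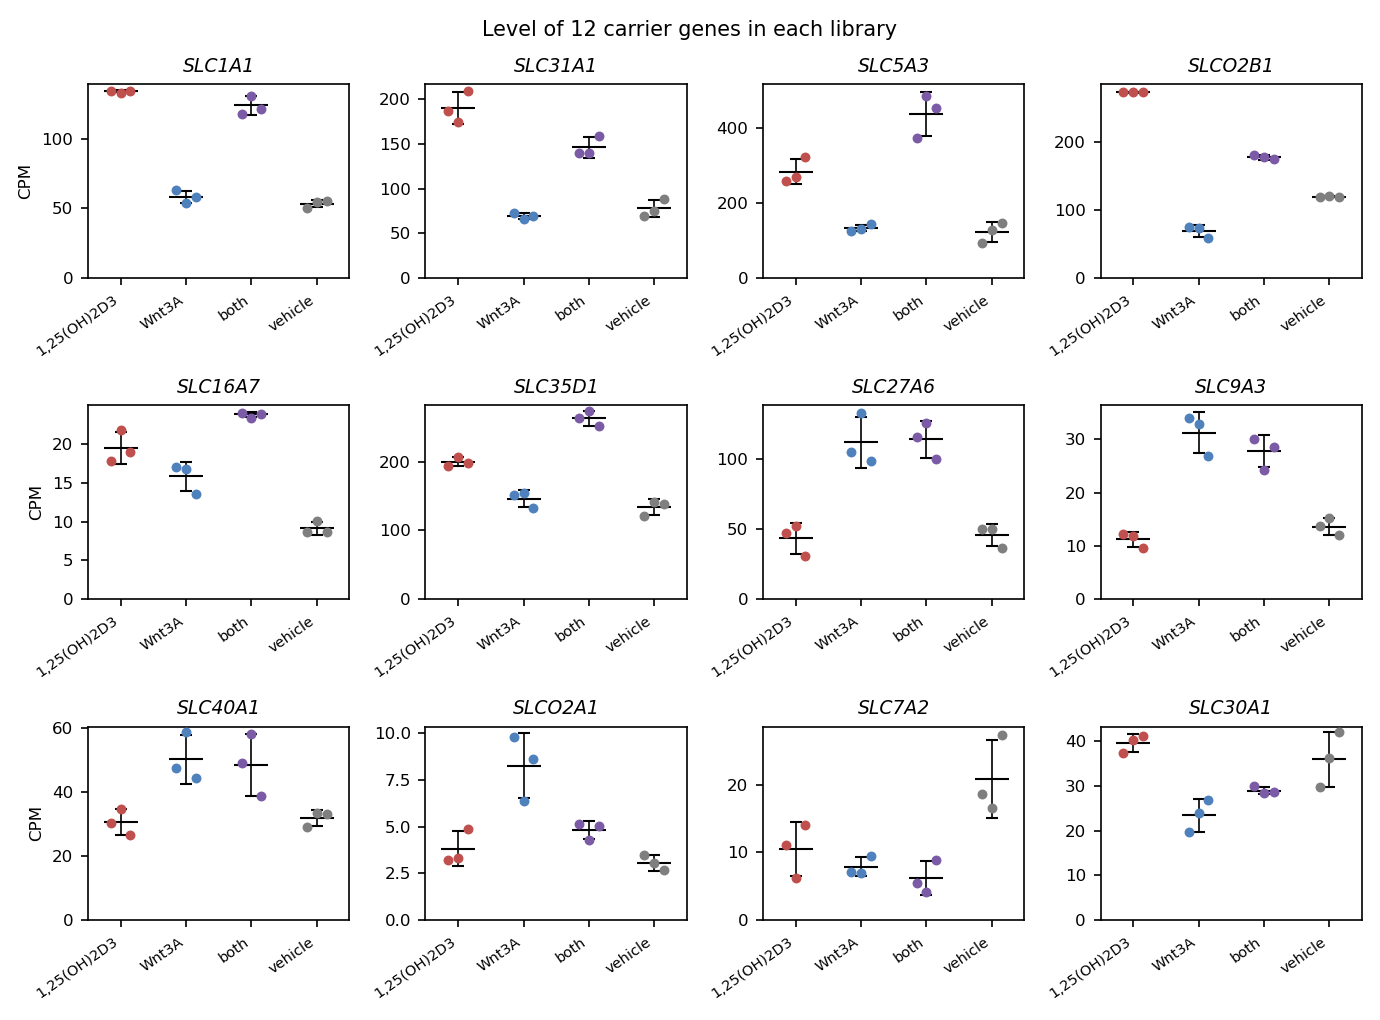
CPM of 12 carrier genes in each library (points, 3 per group), with the group mean (black line) and SD (bars). SLC1A1, SLC31A1, SLC5A3 and SLCO2B1 are high in the groups with 1,25(OH)2D3, SLC27A6, SLC9A3 and SLC40A1 in the groups with Wnt3A, and SLC16A7 in all 3 treated groups, while SLC7A2 is lower in all 3 treated groups than in vehicle.

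Of the 18 carriers placed by symbol with sugars and polyols, 2 rose with 1,25(OH)2D3, none was called with Wnt3A, and 3 rose with both agents. With the block, 1,25(OH)2D3 gave 3 higher and 1 lower, Wnt3A 1 higher, and both agents 4 higher. At least 1 pairwise comparison called 5 of them (27.8%, with the block 50%), beside 31.9% and 46.1% of all genes tested. *SLC5A3* encodes SMIT1, which imports myo-inositol with sodium, and had 259, 268 and 322 CPM with 1,25(OH)2D3, 126, 131 and 143 CPM with Wnt3A, 371, 484 and 452 CPM with both, and 93.7, 128 and 146 CPM with vehicle. All libraries with both agents lay above those with 1,25(OH)2D3 alone, while Wnt3A alone lay within the vehicle range. Its log2 fold change was 1.21 ± 0.16 with 1,25(OH)2D3 (edgeR adjusted p = 0.000342), 0.12 ± 0.16 with Wnt3A (adjusted p = 0.792) and 1.83 ± 0.16 with both (adjusted p = 7.77e-06). With both agents it was also above 1,25(OH)2D3 alone by 0.62 ± 0.15 (adjusted p = 0.0226), and that call was lost without 1,25(OH)2D3 replicate 1 or 2 or combination replicate 2 or 3 (adjusted p between 0.0586 and 0.0939). The gene lies on chromosome 21 at 35467162 to 35478561 (GRCh37) inside *MRPS6*, a gene for a mitochondrial ribosomal protein on the same strand. *MRPS6* moved with it, averaging 180 CPM with 1,25(OH)2D3, 92.5 CPM with Wnt3A, 250 CPM with both and 89.6 CPM with vehicle (log2 fold changes 1.01, 0.048 and 1.48 against vehicle), and reads shared by the pair cannot be assigned here.

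The other rise with 1,25(OH)2D3 was *SLC5A6*, a biotin and pantothenate carrier counted in this group by its symbol and not a sugar carrier. It had 38.6, 44 and 47.3 CPM with 1,25(OH)2D3 and 32, 35.2 and 32.4 CPM with vehicle (log2 fold change 0.38, edgeR adjusted p = 0.00828). This call was lost without 1,25(OH)2D3 replicate 3 (adjusted p = 0.0666). *SLC2A10* and *SLC37A4*, a glucose-family carrier and the glucose-6-phosphate carrier of the endoplasmic reticulum, completed the 3 rises with both agents at 0.23 and 0.47, each called in 8 of the 12 fits. Without vehicle replicate 1 or 2 or combination replicate 2 or 3 the highest adjusted p was 0.126 for *SLC2A10*, and without vehicle replicate 2 or 3 or combination replicate 1 or 2 it was 0.0989 for *SLC37A4*. DESeq2 called neither gene (adjusted p = 0.0518 for *SLC2A10* and 0.107 for *SLC37A4*).

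Of the 7 carriers of iron, copper, magnesium and other divalent metals, 1 rose with 1,25(OH)2D3, 1 with Wnt3A, and 2 rose and 1 fell with both agents. *SLC31A1* (chromosome 9, 115983808 to 116026772) encodes CTR1, the copper importer of the cell surface, and had 187, 174 and 209 CPM with 1,25(OH)2D3, 72.2, 66.3 and 69.5 CPM with Wnt3A, 140, 140 and 159 CPM with both, and 69.9, 75 and 88.8 CPM with vehicle. Both groups with 1,25(OH)2D3 lay above vehicle, and the combination lay below 1,25(OH)2D3 alone in every library. *SLC31A1* had a log2 fold change of 1.28 ± 0.086 with 1,25(OH)2D3 (edgeR adjusted p = 3.45e-11), -0.17 ± 0.091 with Wnt3A (adjusted p = 0.357) and 0.91 ± 0.086 with both (adjusted p = 1.19e-08), and -0.37 ± 0.081 for both against 1,25(OH)2D3 (adjusted p = 0.00261).

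*SLC40A1* (chromosome 2, 190425316 to 190445537) encodes ferroportin, the iron exporter, and had 47.4, 58.8 and 44.4 CPM with Wnt3A, 49.1, 58 and 38.6 CPM with both, 30.4, 34.7 and 26.6 CPM with 1,25(OH)2D3 and 29, 33.4 and 33.1 CPM with vehicle. The change was 0.65 on the log2 scale ± 0.14 with Wnt3A (edgeR adjusted p = 0.00411) and 0.61 ± 0.14 with both (adjusted p = 0.003), and neither group overlapped vehicle. *SLC11A2*, the iron importer DMT1, was called between both agents and 1,25(OH)2D3, with 79.1, 72.1 and 78.3 CPM against 63.2, 60.9 and 61.6 CPM (log2 fold change 0.30, adjusted p = 0.0105). For both agents against vehicle its log2 fold change was 0.18, called with the block (adjusted p = 0.0369) and not without it (adjusted p = 0.0921). The magnesium carrier *SLC41A2* fell with both agents by 0.42 (adjusted p = 0.0126), a call lost without vehicle replicate 3 or combination replicate 3 (highest adjusted p = 0.0861). In all, 4 of these carriers (57.1%) were called in at least 1 pairwise comparison, beside 31.9% of all genes tested. With the block 5 of the 7 were (71.4%), beside 46.1%.

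Of the 16 zinc carriers, 1 was called in any pairwise comparison, beside 31.9% of all genes tested. *SLC30A1* (chromosome 1, 211748381 to 211752099) encodes ZnT1, the zinc exporter of the cell surface, and had 19.6, 23.9 and 26.8 CPM with Wnt3A, 29.9, 28.4 and 28.5 CPM with both, 37.2, 40.1 and 41.1 CPM with 1,25(OH)2D3 and 29.6, 36.2 and 41.9 CPM with vehicle. The Wnt3A libraries lay below vehicle, with a log2 fold change of -0.62 ± 0.12 (edgeR adjusted p = 0.00106), kept in all 12 fits. With both agents the change was -0.31 ± 0.12, not called without the block (adjusted p = 0.0519) and called with it (adjusted p = 0.00868). The other 15 zinc carriers had log2 fold changes against vehicle of no more than 0.22 in size in any treatment. The importer *SLC39A6* averaged 327 ± 19.1 CPM with 1,25(OH)2D3, 312 ± 11.3 CPM with Wnt3A, 317 ± 13 CPM with both and 334 ± 22.9 CPM with vehicle (SD, n = 3 each). With the block 4 of the 16 zinc carriers were called in some comparison (25%), beside 46.1% of all genes.

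Of the 24 carriers of protons, bicarbonate, chloride, calcium and phosphate, 3 rose and none fell with 1,25(OH)2D3, beside 8.54% and 6.12% of all genes. With Wnt3A 2 rose and 1 fell, and with both agents 4 rose and 3 fell. With the block, each single agent gave 4 higher and 3 lower, and both agents gave 6 higher and 3 lower. Calls in at least 1 pairwise comparison numbered 9 (37.5%, with the block 54.2%), beside 31.9% and 46.1% of all genes. *SLC9A3* (chromosome 5, 473334 to 524549) encodes NHE3, the sodium/proton exchanger best known from the apical membrane of intestinal epithelium. It had 33.9, 32.9 and 26.8 CPM with Wnt3A, 30.1, 24.3 and 28.6 CPM with both, 12.3, 11.8 and 9.61 CPM with 1,25(OH)2D3 and 13.7, 15.2 and 12 CPM with vehicle. *SLC9A3* changed on the log2 scale by 1.19 ± 0.13 with Wnt3A (edgeR adjusted p = 5.45e-07) and 1.01 ± 0.13 with both (adjusted p = 2.02e-06), and neither group overlapped vehicle. The 6 epithelial markers *EPCAM*, *CDH1*, *KRT20*, *VIL1*, *MUC2* and *KRT19* summed to 0.333 to 1.1 CPM with Wnt3A, 0.163 to 1.84 CPM with both, 0 to 1.37 CPM with 1,25(OH)2D3 and 0 to 0.166 CPM with vehicle, with *KRT20* and *VIL1* at 0 in all libraries. Most of these reads came from *KRT19*, with 38 over the 12 libraries, beside 6 for *EPCAM* and 1 each for *CDH1* and *MUC2*. The part of other cells in the *SLC9A3* result was not tested. Antisense and neighbouring transcripts cover 13% of the exons of *SLC9A3*.

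*SLC12A2*, the sodium-potassium-chloride cotransporter NKCC1, had 92.7, 80 and 108 CPM with Wnt3A, 95.5, 88.3 and 102 CPM with both, and 59.5, 61.9 and 72.5 CPM with vehicle. Its log2 fold changes were 0.53 (edgeR adjusted p = 0.0062) and 0.56 (adjusted p = 0.00174), and the Wnt3A call was lost without vehicle replicate 1 (adjusted p = 0.056). *SLC12A8*, of the same family, had 78.2, 102 and 95.5 CPM with 1,25(OH)2D3, 41.4, 45.3 and 40.9 CPM with Wnt3A, 64.6, 82 and 66.1 CPM with both, and 46.1, 62.1 and 51.9 CPM with vehicle. It rose by 0.78 ± 0.11 with 1,25(OH)2D3 (adjusted p = 5.53e-05) and by 0.41 ± 0.12 with both (adjusted p = 0.0134), and the change with Wnt3A was -0.33 ± 0.12 (adjusted p = 0.122, with the block 0.00275). The call with both was lost without vehicle replicate 1 or combination replicate 2 (adjusted p = 0.0676 and 0.0995). The endosomal exchanger *SLC9A9* fell by 0.61 with Wnt3A (adjusted p = 0.0318). The *SLC9A9* call was lost without vehicle replicate 1 or 2 or Wnt3A replicate 1 or 3 (adjusted p between 0.0892 and 0.177).

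The nucleotide sugar carriers feed glycosylation in the endoplasmic reticulum and Golgi apparatus, and 20 of the genes belong to them or their relatives. Of these, 1 rose with each single agent, and 3 rose and 2 fell with both. With the block, 1,25(OH)2D3 gave 3 higher and 3 lower, Wnt3A 1 higher, and both agents 3 higher and 3 lower. Some pairwise comparison called 6 of the 20 (30%, with the block 50%), beside 31.9% and 46.1% of all genes tested. *SLC35D1*, which brings UDP-glucuronic acid and UDP-N-acetylgalactosamine into the endoplasmic reticulum for chondroitin sulfate synthesis, had 194, 206 and 198 CPM with 1,25(OH)2D3, 152, 154 and 132 CPM with Wnt3A, 264, 273 and 251 CPM with both, and 121, 141 and 139 CPM with vehicle. The combination lay above every other library. The log2 fold change of *SLC35D1* was 0.58 ± 0.073 with 1,25(OH)2D3 (edgeR adjusted p = 2.34e-06), 0.12 ± 0.074 with Wnt3A (adjusted p = 0.419) and 0.97 ± 0.072 with both (adjusted p = 1.37e-10), and 0.40 ± 0.071 for both against 1,25(OH)2D3 (adjusted p = 0.000313).

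*SLC35F3*, a relative at low level, had 10.1, 9.31 and 7.48 CPM with Wnt3A, 8.12, 9.85 and 6.84 CPM with both and 4, 4.8 and 4.99 CPM with vehicle, with log2 fold changes of 0.96 and 0.84 (edgeR adjusted p = 0.00182 and 0.00268). In the Golgi, the CMP-sialic acid carrier *SLC35A1* rose by 0.35 with both agents (adjusted p = 0.0182), and the UDP-galactose carrier *SLC35A2* fell by 0.31 (adjusted p = 0.0134). Both of these calls depended on single libraries, as *SLC35A1* lost it without vehicle replicate 3 or combination replicate 1 or 2 (highest adjusted p = 0.0757) and was not called by DESeq2 (adjusted p = 0.0758), and *SLC35A2* lost it without combination replicate 1 (adjusted p = 0.0864). *SLC35E2* and *SLC35E2B* are near-identical copies, so their values are uncertain.

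The 36 mitochondrial carriers, the largest of the groups, had 1 higher and 2 lower with 1,25(OH)2D3, 1 higher with Wnt3A, and 3 higher and 4 lower with both agents. In at least 1 pairwise comparison 9 were called (25%), beside 31.9% of all genes tested. With the block 16 were (44.4%), beside 46.1%. The glutamate carrier *SLC25A22* had 29.5, 33.1 and 35.1 CPM with 1,25(OH)2D3, 28.6, 25.7 and 26.4 CPM with both, and 47.6, 41.6 and 43.1 CPM with vehicle. Its log2 fold changes were -0.44 ± 0.099 (edgeR adjusted p = 0.00274) and -0.71 ± 0.10 (adjusted p = 6.51e-06), without overlap. The pyrimidine nucleotide carrier *SLC25A36* went the other way, with 112, 110 and 105 CPM with 1,25(OH)2D3, 102, 117 and 112 CPM with both and 81.9, 82.7 and 83.2 CPM with vehicle (log2 fold changes 0.40 and 0.42, adjusted p = 0.000323 and 0.000107). *SLC25A10*, the dicarboxylate carrier, rose by 0.76 with Wnt3A (adjusted p = 0.0149), a call lost without vehicle replicate 2 or Wnt3A replicate 1 or 3 (highest adjusted p = 0.1). With both agents it rose by 0.79 (adjusted p = 0.0045), a call kept in all 12 fits. Another transcript on the strand of *SLC25A10* covers 62.9% of its exons. The abundant phosphate carrier *SLC25A3* averaged 441 ± 29.7 CPM with 1,25(OH)2D3, 419 ± 23.2 CPM with Wnt3A, 427 ± 16.3 CPM with both and 444 ± 45.3 CPM with vehicle (SD, n = 3 each), and was not called in any comparison.

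Among the 19 carriers of nucleosides, vitamins, choline and lipids, 1 gene rose with each single agent, and 5 rose and 2 fell with both. With the block, 1,25(OH)2D3 gave 5 higher, Wnt3A 1 higher and 1 lower, and both agents 6 higher and 3 lower. At least 1 pairwise comparison called 7 of the 19 (36.8%, with the block 47.4%), beside 31.9% and 46.1% of all genes tested. The 2 called fatty acid transport proteins were called with different single agents. *SLC27A6* (chromosome 5, 128301210 to 128369335) had 105, 133 and 98.3 CPM with Wnt3A, 116, 126 and 100 CPM with both, 47.5, 51.9 and 30.5 CPM with 1,25(OH)2D3 and 50.1, 50.2 and 36.8 CPM with vehicle. *SLC27A6* changed on the log2 scale by 1.29 ± 0.19 with Wnt3A (edgeR adjusted p = 0.00192) and 1.32 ± 0.19 with both (adjusted p = 0.000631), without overlap. *SLC27A1* had 15.9, 21.6 and 19 CPM with 1,25(OH)2D3, 19.2, 22.2 and 19.5 CPM with both, and 13.9, 13.4 and 13.3 CPM with vehicle, with log2 fold changes of 0.47 (adjusted p = 0.0181) and 0.59 (adjusted p = 0.00159). Its call with 1,25(OH)2D3 was lost without vehicle replicate 2 or 1,25(OH)2D3 replicate 2 or 3 (highest adjusted p = 0.127) and was not made by DESeq2 (adjusted p = 0.0595).

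Of the vitamin carriers in this group, *SLC23A2* and *SLC46A1* were called with both agents against vehicle, and with the block each was also called with 1,25(OH)2D3 alone (adjusted p = 0.0333 and 0.0397). The vitamin C carrier *SLC23A2* had 120, 128 and 108 CPM with both agents and 89.6, 95.8 and 95.1 CPM with vehicle (log2 fold change 0.34, edgeR adjusted p = 0.00107). The folate carrier *SLC46A1* had 9.59, 9.37 and 10.4 CPM with both and 5.56, 5.60 and 4.16 CPM with vehicle (log2 fold change 0.94, adjusted p = 0.000561), but 63.6% of its exons overlap *SARM1* and another transcript on the other strand. The urea carrier *SLC14A1*, which belongs to none of the groups, had 390, 295 and 456 CPM with 1,25(OH)2D3, 531, 507 and 656 CPM with Wnt3A, 471, 460 and 617 CPM with both, and 450, 373 and 532 CPM with vehicle. Replicate 3 was the highest in every group, and Wnt3A gave a log2 fold change of 0.32 ± 0.20 that was not called without the block (adjusted p = 0.483) and was called with it (adjusted p = 1.34e-06). The change with 1,25(OH)2D3 was -0.25 ± 0.20, likewise called only with the block (adjusted p = 0.492 without and 0.000159 with it).

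**Figure D3:**
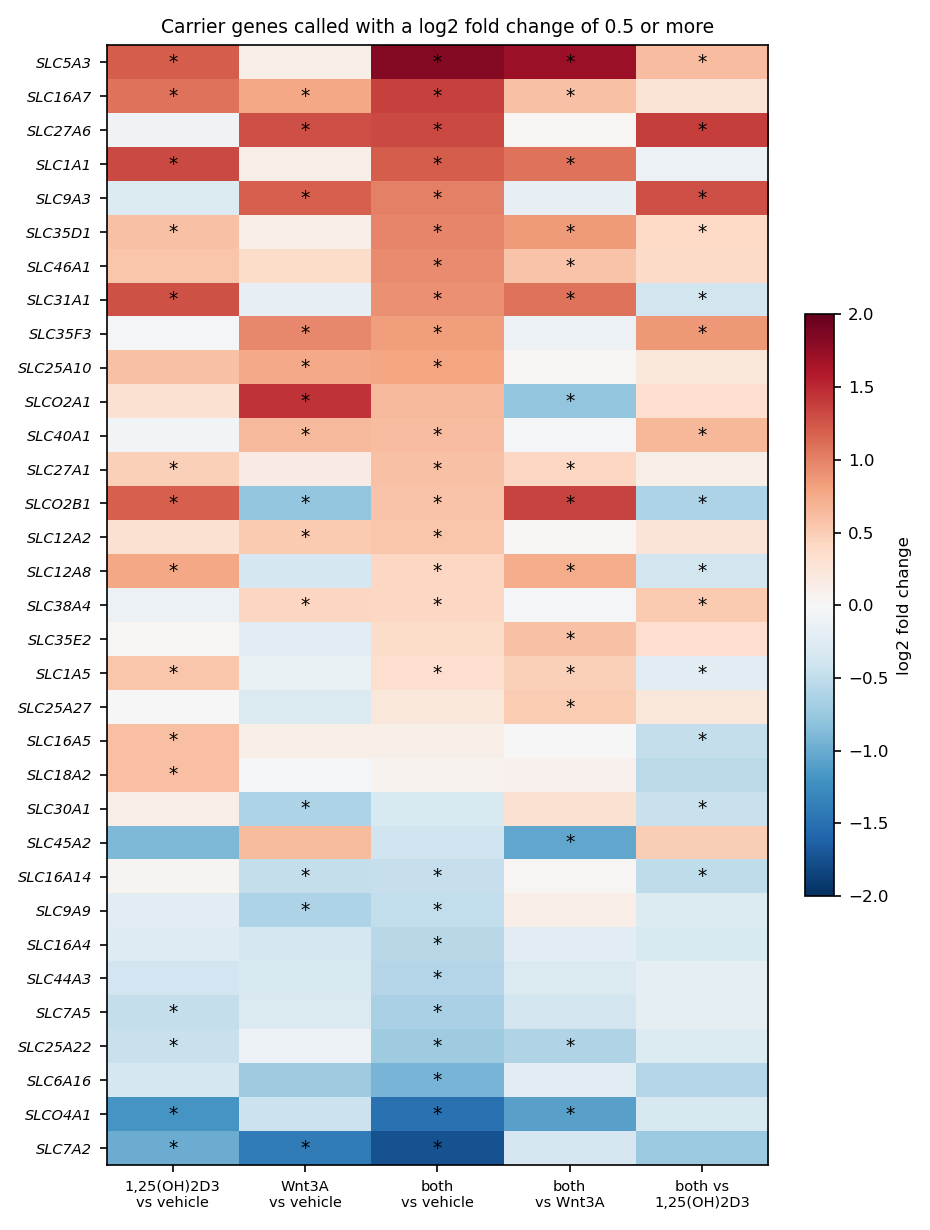
Log2 fold change (colour) of 33 carrier genes called in at least 1 pairwise comparison with a change of at least 0.5 in size, in columns for the 5 pairwise comparisons. A star marks an edgeR adjusted p under 0.05, and genes are sorted by the change with both agents against vehicle, from SLC5A3 at 1.83 to SLC7A2 at -1.75.

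The calls of each agent without and with the other come from pairs of comparisons that share no library. Both agents against Wnt3A gave 26 calls (19 higher and 7 lower, beside 13.4% of all genes, 7.54% higher and 5.9% lower), and 16 of these were among the 25 calls of 1,25(OH)2D3 against vehicle in the same direction, which is 61.5% of the 26 and 64% of the 25. Over all genes tested, 1123 were called in both of these comparisons in the same direction, which is 68.4% of 1642 and 62.7% of 1791. Of the 25 genes, 24 had the same sign (96%, beside 98.6% of all genes called with 1,25(OH)2D3), the exception being *SLC16A5* with a log2 fold change of 0.60 without Wnt3A and -0.00078 with it. Both agents against 1,25(OH)2D3 gave 16 calls (8 higher and 8 lower, beside 9.23% of all genes, 5.2% higher and 4.03% lower), of which 8 (50%) were among the 15 calls of Wnt3A against vehicle (53.3%), and all 15 had the same sign (beside 98.8% of all genes called with Wnt3A). Over all genes tested, that overlap was 731, which is 64.9% of 1127 and 72.2% of 1013. *SLC1A1* rose by 1.08 in the presence of Wnt3A against 1.32 in its absence, *SLC31A1* by 1.08 against 1.28, and *SLCO2B1* by 1.35 against 1.19. In the presence of 1,25(OH)2D3, *SLC27A6* rose with Wnt3A by 1.39 against 1.29 in its absence, and *SLC9A3* by 1.29 against 1.19.

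The counts of both agents against a single agent moved with the block. With it, both agents against Wnt3A gave 27 higher and 24 lower (22% of all genes), and both against 1,25(OH)2D3 gave 14 higher and 19 lower (14.8%). DESeq2 gave 13 higher and 1 lower (10%) against Wnt3A, and 8 higher and 7 lower (7.55%) against 1,25(OH)2D3. Against Wnt3A, 12 of the 26 calls were kept in all 12 fits, and against 1,25(OH)2D3 alone 10 of the 16 were.

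**Figure D4:**
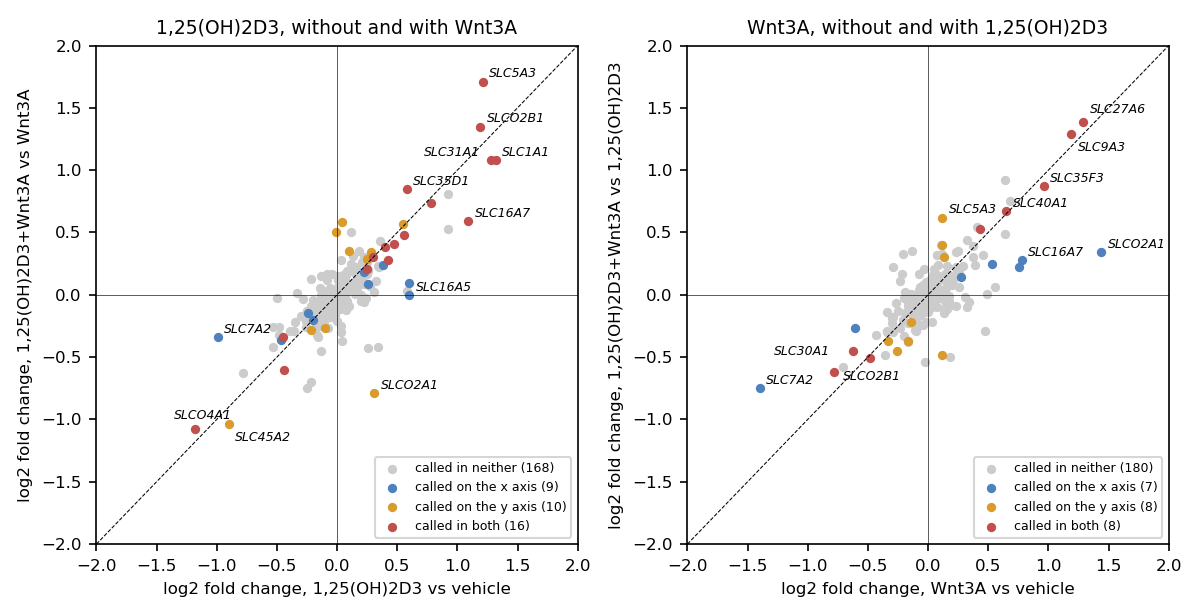
Log2 fold changes of the 203 carrier genes for 1,25(OH)2D3 (left) and Wnt3A (right), without the other agent (x axis) and in its presence (y axis), coloured by the calls, with the line of equal change dashed. The axes share no library, and 16 genes on the left and 8 on the right were called on both axes.

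A test of the interaction asked whether the change with both agents departs from the added log2 changes of the single agents. edgeR called 0 of the 203 genes and 0.0% of all genes tested, with 8 of the 203 and 354 of the 12216 at an unadjusted p under 0.05, and DESeq2 also called 0. Both fits leave the shared deviations of an experiment in the spread, so the lack of calls does not show that the changes add up. The smallest p values belonged to *SLC16A5* (interaction -0.60 ± 0.19), *SLC37A1* (-0.68 ± 0.23) and *SLCO2A1* (-1.10 ± 0.34), each with an adjusted p of 1 by edgeR. With the replicate block 1 gene was called, *SLC5A3*, at 0.49 above the sum (adjusted p = 0.0111, beside 0.147% of all genes). *SLC5A3* was also the 1 call without a count filter (0.51, adjusted p = 0.00922).

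Of the 51 genes called with both agents, 23 were called with neither agent alone (45.1%), 9 higher and 14 lower, beside 1133 of 2926 (38.7%) over all genes tested. With the block 10 of these 23 were called with a single agent as well, among them *SLC23A2*, *SLC46A1* and *SLC35A2*, so being called with both agents alone does not show a response particular to the combination. *SLC16A7* and *SLC7A2* were called with each single agent in the same direction, and in both the change with the combination was smaller in size than the sum of the single changes, at 1.37 beside 1.87 and -1.75 beside -2.39. The single agents share their vehicle libraries, and neither gene was called for the interaction.

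Carriers without an SLC symbol and the partners of carriers were read from separate lists. Of 41 tested carriers without the symbol, 7 were higher and 3 lower with 1,25(OH)2D3 (17.1% and 7.32%, beside 8.54% and 6.12% of all genes tested). With Wnt3A none was higher and 3 were lower (7.32%, beside 3.33%), and with both 5 were higher and 4 lower (12.2% and 9.76%, beside 13.3% and 10.7%). *NPC1*, the lysosomal cholesterol exporter, averaged 325 ± 21 CPM with 1,25(OH)2D3, 169 ± 4.65 CPM with Wnt3A, 205 ± 6.88 CPM with both and 210 ± 17.6 CPM with vehicle (SD, n = 3 each). It rose by 0.63 with 1,25(OH)2D3 and fell by 0.32 with Wnt3A (edgeR adjusted p = 2.36e-07 and 0.00339), the same pair of directions as *SLCO2B1*. *MFSD6*, of the major facilitator family, rose by 0.92 with 1,25(OH)2D3 (adjusted p = 3.48e-06). Of 16 tested partners and ion pumps, none rose in any of these comparisons, and 1 fell with 1,25(OH)2D3 (6.25%, beside 6.12% of all genes tested), 2 with Wnt3A (12.5%, beside 3.33%) and 6 with both (37.5%, beside 10.7%). The calcium pump *ATP2B4* averaged 351 ± 10.7 CPM with both agents and 456 ± 28.7 CPM with vehicle (log2 fold change -0.38), and the proton pump subunit *ATP6V1A* 293 ± 27 and 399 ± 39.9 CPM (log2 fold change -0.44).

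Known targets of each agent followed the labels. *THBD*, a vitamin D target, had 108 to 110 CPM with 1,25(OH)2D3, 69.2 to 86.6 CPM with both, 5.65 to 7.01 CPM with Wnt3A and 7.65 to 13 CPM with vehicle, and *AXIN2*, a Wnt target, 16.5 to 23.6 CPM with Wnt3A, 17.9 to 22.1 CPM with both, 2.64 to 3.07 CPM with 1,25(OH)2D3 and 1.91 to 2.50 CPM with vehicle. The 9 fibroblast and myofibroblast markers summed to 22300 to 25800 CPM in all libraries, with *POSTN* at 40 reads over the 12. Endothelial markers summed to 13.3 to 28.2 CPM, almost all from *TEK* and *VWF*, immune markers to 165 to 204 CPM, almost all from *CD68*, and neural and glial markers to at most 0.942 CPM. None of these lists was tested as a source of the carrier results.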

How the data were processed

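CCD-18Co cultures were treated in 4 groups of 3 libraries, from 3 numbered experiments. The authors prepared stranded polyA+ libraries, sequenced single reads of 40 bases, ran the ELAND v2e aligner of CASAVA 1.8 against GRCh37/hg19 and deposited 1 table of raw counts per gene. Which program and annotation gave the counts, and whether strand was used, was not given in the sources used here. Between 78.2% and 80.9% of the deposited values from 1 to 400 were multiples of 40, so each value was converted to whole read equivalents (division by 40, rounding), which totalled 5363668 to 6261100 per library.

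The 21893 genes were filtered with filterByExpr (minimum count 10), which left 12216, scaled by TMM and fitted over all 12 libraries without a block in edgeR 4.0.16 (R 4.3.3) with the quasi-likelihood F test. P-values were adjusted by Benjamini-Hochberg over all genes tested, with a threshold of 0.05, and a prior count of 0.125 entered the log2 fold changes. The SE of a log2 fold change was worked back from the test, as its size divided by the square root of F. The p-values measure the spread between experiments on 1 cell line. The fit was tested on simulated data with 200 changed genes.

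Alternatives were the experiment number as a replicate block, RLE scaling, no count filter, a stricter filter (50 reads in 3 libraries), undivided values, DESeq2 1.42.0, and each library left out. The experiments pair the libraries: over 6108 genes, deviations from group means correlated at 0.238 to 0.538 in the 18 pairs with the same number and at -0.419 to 0.0146 in the 36 others.

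The carrier genes, their functional groups and all lists were chosen with earlier results of these data known. Named genes are, per pairwise comparison, the 4 largest rises and 4 largest falls among called genes with the same direction in all 3 experiments, up to 3 called genes with the smallest p per functional group, the 3 smallest interaction p-values, the 6 highest levels, the genes beside the level limit, genes called with each single agent, *SLCO2B1*, the response genes, and up to 3 genes of each outside list. Genes named beyond that complete a count or a subunit pair and were chosen after their values were seen. Exon overlaps and transcript lengths came from GENCODE genes on GRCh37, which matched 198 of the 203 genes, and promoters from RefSeq (GRCh38.p14). Some carrier genes stay in the counts and are not reported by name here.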

Additional observations from a re-analysis of the deposited data

How the results depend on the processing

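No gene named in the text changed direction in a called comparison under any alternative run. With the replicate block (experiments paired), calls among the 203 genes moved to 32 higher and 17 lower for 1,25(OH)2D3, 13 lower for Wnt3A, 24 lower for both agents against Wnt3A, 14 higher and 19 lower for both against 1,25(OH)2D3, and 1 higher for the interaction. Without a count filter Wnt3A gave 9 lower and the interaction 1 higher. The stricter filter gave 4 lower for both against Wnt3A. *SLC45A2*, *SLCO2A1* and *SLCO4A1*, with means of 19.7, 29.2 and 19 read equivalents, fell under its limit and were not tested there. DESeq2 gave 4 lower for 1,25(OH)2D3 and 1 lower for both against Wnt3A. The cause of the other shifts was not tested. The other counts over the 203 genes under these settings, and all such counts under RLE scaling and with undivided values, stayed within 1.5 times. Of the counts per functional group, 44 moved with the block and 100 did not.

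With 1 library left out, 1,25(OH)2D3 gave 14 to 19 higher and 4 to 8 lower, Wnt3A 8 to 10 and 4 to 7, both agents against vehicle 23 to 30 and 14 to 22, both against Wnt3A 12 to 21 and 2 to 10, both against 1,25(OH)2D3 6 to 10 and 4 to 11, and the interaction 0 to 0. Genes at a few CPM, such as *SLCO4A1* and *SLCO2A1*, rest on few reads at this depth. Strand use in counting is unknown, and 27 of the 203 genes share at least 10% of their exon bases with another gene. One dose and time per agent in 1 cell line was measured.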
